A study of Mus musculus with 10 samples.

Results

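The genes described here are 10 genes around the feedback control of NF-κB, chosen by symbol: *Nfkbia*, *Nfkbib*, *Nfkbie*, *Nfkbiz*, *Nfkbid*, *Bcl3*, *Tnfaip3*, *Tnip1*, *Cyld* and *Tnfaip2*. All 10 were found among the 13091 genes of the deposited tables. The RNA came from mouse neutrophils of strain 129-SVEV, differentiated in culture from clonal bone marrow progenitors that carry an estrogen-dependent HoxB8, so each line is 1 clone. There were 10 libraries in 4 groups: 2 Vim+/+ unstimulated, 2 Vim+/+ with LPS, 3 Vim-/- unstimulated and 3 Vim-/- with LPS. LPS was given at 25 ng/mL for 1 hour. The sample labels write the vimentin-negative genotype as a KD, whereas the methods derive those cells from knockout mice.

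What the tables offer for each gene, beside the authors' own comparisons, is 1 level: the mean of the normalized counts over all 10 libraries. The fold changes and p-values of the authors' comparisons were not used, so the questions of what LPS and vimentin did to these genes are not analysed here. A level below therefore mixes both genotypes, and unstimulated with stimulated cells. It has no error, since no value per library was at hand, and the depth of each library is unknown. The 10 libraries comprise 5 with LPS and 5 without, and 6 of the 10 are Vim-/-. Because counts cannot be negative, the mean over the 5 LPS libraries can be at most double the level given.

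NF-κB is a family of dimeric transcription factors held in the cytoplasm by inhibitors of the IκB family. When LPS engages its receptor, the IKK kinase phosphorylates the inhibitor, which is degraded, and NF-κB enters the nucleus. Several of the genes it switches on then restrain it. Newly made IκBα carries NF-κB back out of the nucleus, nuclear IκB proteins change which genes it acts on, and ubiquitin-editing enzymes such as A20 shut down the signal above IKK.

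DNA that NF-κB binds follows a 10-letter pattern, the κB consensus. It was searched on both strands of the RefSeq promoters of GRCm38.p6, each reaching from 250 bases before to 50 bases after a start site. Promoters were held for 9 of the 10 genes, all but *Nfkbiz*, and *Nfkbid* has 3 of them and *Tnfaip3* 2. A match was found for 7 of these 9 genes, in 7 of their 12 promoters. Among the 9778 genes of the tables with a promoter, 5.93% held a match in at least 1, and so did 4.51% of all 32851 promoters. The matched stretches are shown because they are the letters on which that count rests. Each is read 5′ to 3′ on the strand of its gene, with the match in capitals. A match on the opposite strand therefore appears as its reverse complement.
*Nfkbia*, chr12:55492657-55492686: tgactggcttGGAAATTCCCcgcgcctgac
*Nfkbie*, chr17:45555584-45555613: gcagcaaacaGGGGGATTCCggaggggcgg
*Bcl3*, chr7:19822734-19822763: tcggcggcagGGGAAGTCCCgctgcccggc
*Nfkbid*, distal, chr7:30422170-30422199: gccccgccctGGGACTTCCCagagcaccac
*Nfkbid*, proximal, chr7:30422215-30422244: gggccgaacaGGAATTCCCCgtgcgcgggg
*Tnfaip3*, distal, chr10:19015516-19015545: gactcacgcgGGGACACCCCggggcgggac
*Tnfaip3*, proximal, chr10:19015403-19015432: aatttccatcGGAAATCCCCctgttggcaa
*Tnip1*, chr11:54962977-54963008: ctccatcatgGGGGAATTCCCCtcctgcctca
*Cyld*, chr8:88696863-88696892: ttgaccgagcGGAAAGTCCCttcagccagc

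The match of *Nfkbia* began 29 bases before its start site. The proximal match of *Tnfaip3* began 12 bases before the RefSeq start site at 19015410. Both matches of *Tnfaip3* lie inside the span of the gene given below, which reaches to 19015657 and is read on the minus strand. In *Tnip1* the capitals span 12 bases because 4 matches overlap there, on both strands, beginning 58 bases before the start site. The match of *Bcl3* lay just behind its start site, in transcribed sequence. That of *Nfkbie* began 106 bases and that of *Cyld* 155 bases before the start. Those of *Nfkbid* began 226 and 181 bases before its start site at 30422406, which is not its first. They lie inside the span of the gene given below, which begins at 30421732. No match was found for *Nfkbib* and *Tnfaip2*, which says only that these letters are not in these windows. With a looser form of the consensus, which 12.0% of genes held, 8 of the 9 genes had a match, *Tnfaip2* included. With a stricter form that fixes all letters but the fifth, held by 0.542% of genes, 2 had one, *Nfkbia* and *Cyld*. A match is a description of sequence and not a measured binding site. Because the genes were chosen for their part in NF-κB feedback, the share with a match is no test of enrichment.

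**Figure D1:**
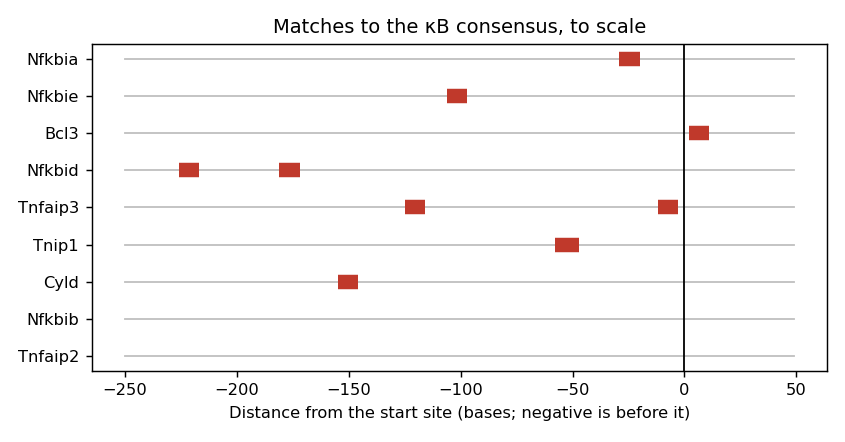
Position of each κB consensus match (red blocks, drawn to scale) in the promoters of 9 genes, with distance from the start site in bases on the x axis and the start site as a black line at 0. For Nfkbid and Tnfaip3 only the 1 promoter with matches is drawn, and its start site lies inside the annotated gene span. Matches appear for 7 genes, and the rows of Nfkbib and Tnfaip2 hold none.

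All 10 genes had a level above the median of all genes, which was 907 normalized counts, and 8 of the 10 lay above the upper quartile of 3065. Their median was 6745, 7.43 times the median of all genes, and 87.9% of genes were lower than that. These counts and the ranks given with each gene below are of levels not corrected for length. These are descriptions with no test, since genes named for their part in a response known from leukocytes were not drawn at random.

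**Figure D2:**
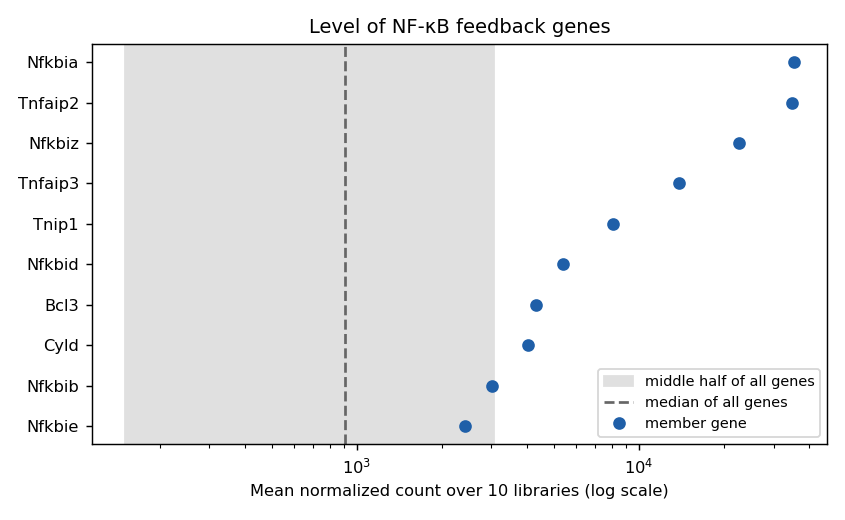
Level of each of the 10 genes as the authors' mean normalized count over 10 libraries (x axis, log scale), with no error because the column is a pooled mean. The grey band spans the quartiles of all 13091 genes, from 151 to 3065, and the dashed line is their median of 907. Only Nfkbib and Nfkbie lie inside the band.

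The classical IκB genes encode the cytoplasmic inhibitors that IKK marks for degradation. *Nfkbia* encodes IκBα, the inhibitor that is degraded and resynthesized fastest, and lies on chromosome 12 from 55489410 to 55492647 on the minus strand of GRCm38. Its level was 35437 normalized counts, and it ranked 208 of 13091 genes. *Nfkbib*, which encodes IκBβ, lies on chromosome 7 from 28758251 to 28767512 and had a level of 3008. Its exons overlap those of *Sirt2* on the opposite strand, whose level was 7855, and the sources used here do not say whether counting used strand, so the level of *Nfkbib* is uncertain. *Nfkbie*, for IκBε, on chromosome 17 from 45555703 to 45563169, had a level of 2425, rank 3891.

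Longer transcripts give more reads, so ratios between single genes are given only per kilobase, here of the longest annotated transcript unless stated otherwise. The 10 genes spanned 44.5-fold on that scale, 49.3-fold with the median length, 117-fold with the shortest and 26.6-fold with the coding length. Per kilobase *Nfkbia* stood at 22457 normalized counts, *Nfkbib* at 1459 and *Nfkbie* at 807. The longest transcript of *Nfkbie* is an intron-retaining form of 3006 bases. *Nfkbia* exceeded *Nfkbib* 15.4-fold, and from 9.61-fold (shortest) to 13.5-fold (coding) with the other lengths. It exceeded *Nfkbie* 27.8-fold, with 49.1-fold for the shortest and 17.3-fold for the coding length. *Nfkbia* made up 90.8% of the summed level per kilobase of these 3 inhibitors. With the median, the shortest or the coding length, its share was 90.1%, 88.9% and 88.3%. The classical IκB transcripts of these cultures, averaged over LPS and genotype, were therefore mostly those of *Nfkbia* at every length tried.

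The nuclear, or atypical, IκB proteins work inside the nucleus, where they bind NF-κB dimers on DNA and can raise as well as lower transcription. *Nfkbiz* encodes IκBζ, which is needed for a set of secondary response genes such as *Il6*, and lies on chromosome 16 from 55811375 to 55838899. Its level was 22575 normalized counts, rank 393. *Nfkbid*, for IκBNS, on chromosome 7 from 30421732 to 30428746, had a level of 5391. *Bcl3*, on chromosome 7 from 19808462 to 19822770, which pairs with p50 and p52 homodimers, had a level of 4307, and an antisense gene, *Gm16175*, overlaps its exons, so the same limit on strand applies. Per kilobase these were 5486, 2644 and 2328, so *Nfkbiz* stood 2.07-fold above *Nfkbid* and 2.36-fold above *Bcl3*. With the shortest length, which is only 188 bases for *Nfkbiz*, these ratios were 11.3 and 9.65. *Nfkbiz*, at 120081 per kilobase, was then highest of the 10. The order of *Nfkbiz* and *Bcl3* rested on the length used. With the median length, which is 598 bases for the 6 transcripts of *Bcl3*, that gene was at 7203 and *Nfkbiz* at 6106 per kilobase.

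Another set acts on ubiquitin chains. *Tnfaip3* encodes A20, an enzyme that edits ubiquitin on signaling adaptors, and lies on chromosome 10 from 19000910 to 19015657. Its level was 13896 normalized counts, rank 734. *Tnip1* encodes ABIN1, a ubiquitin-binding partner of A20, and lies on chromosome 11 from 54910785 to 54962917 with a level of 8099. *Cyld*, a deubiquitinase that removes K63-linked and linear chains, lies on chromosome 8 from 88697028 to 88751945 and had a level of 4045. Per kilobase *Tnip1* was at 2724, *Tnfaip3* at 2242 and *Cyld* at 504, the lowest of the 10 except with the shortest length, where *Nfkbie* was lowest at 1029. *Tnfaip3* was 4.45-fold above *Cyld*, 6.03-fold with the median length, 11.1-fold with the shortest and 4.23-fold with the coding length. *Tnfaip3* and *Tnip1* changed places with the length: their ratio was 0.823 with the longest transcript, which for *Tnfaip3* is an intron-retaining form of 6199 bases, and 1.43 with the coding length.

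*Tnfaip2* is not an IκB or a ubiquitin enzyme. It encodes a TNF-inducible protein related to the exocyst that is known for the formation of membrane nanotubes. It lies on chromosome 12 from 111442469 to 111455018, with a level of 34865 normalized counts, rank 213. Per kilobase it was at 8965, second of the 10. With the median length it was at 44584 and above *Nfkbia* at 31099. Its longest transcript is an intron-retaining form of 3889 bases, and the median of its 11 annotated transcripts is 782 bases. The antisense gene *Gm40578*, at a level of 16.2, overlaps its exons.

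**Figure D3:**
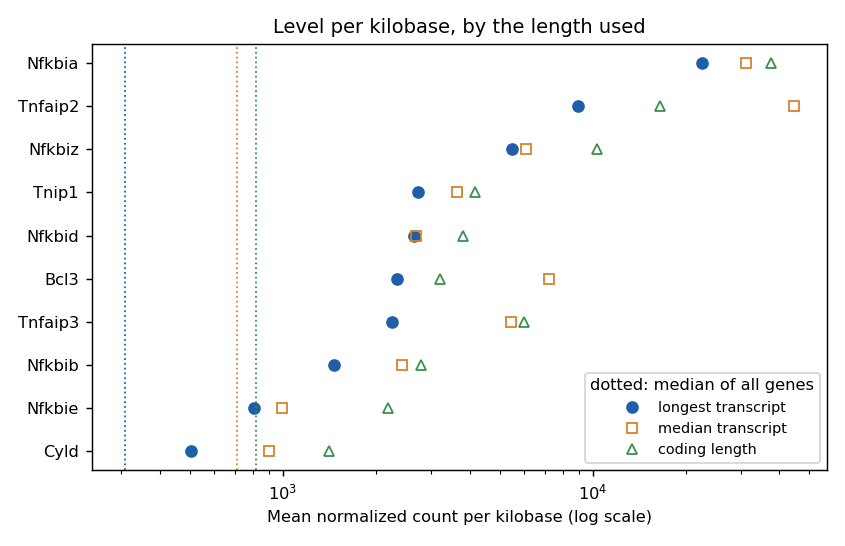
Mean normalized count per kilobase (x axis, log scale) of the 10 genes with the longest transcript (filled circles), the median transcript (squares) or the coding length (triangles), and the median of all genes for each length (dotted lines). Nfkbia is highest with the longest transcript and the coding length and Cyld is lowest with all 3, while Tnfaip2 and Bcl3 shift most between the 3 lengths.

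The genes around these in the pathway were measured in the same libraries. All 5 NF-κB subunits were in the tables, with levels from 828 for *Rel* to 7679 for *Nfkb2*, and a median of 1723 per kilobase against 2486 for the 10 feedback genes and 309 for all genes. The 3 genes of the IKK complex, *Chuk*, *Ikbkb* and *Ikbkg*, lay between 389 and 533 per kilobase. The 10 ubiquitin and kinase adaptors had a median of 480, with *Birc3*, an E3 ligase, highest at 2469 and *Rnf31*, the catalytic subunit of the linear ubiquitin ligase, lowest at 240. Of 13 other A20-complex, deubiquitinase and inhibitor genes, with a median of 1049, *Tax1bp1*, an adaptor of A20, was highest at 4413 per kilobase. *Tnip3*, which encodes ABIN3, was lowest at 8.85 per kilobase, against 2724 for its relative *Tnip1*. The order of the list medians depends on the measure: not corrected for length, the median level was 7083 for the subunits and 6745 for the feedback genes. List medians per kilobase were computed with the longest transcript alone and carry no test.

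**Figure D4:**
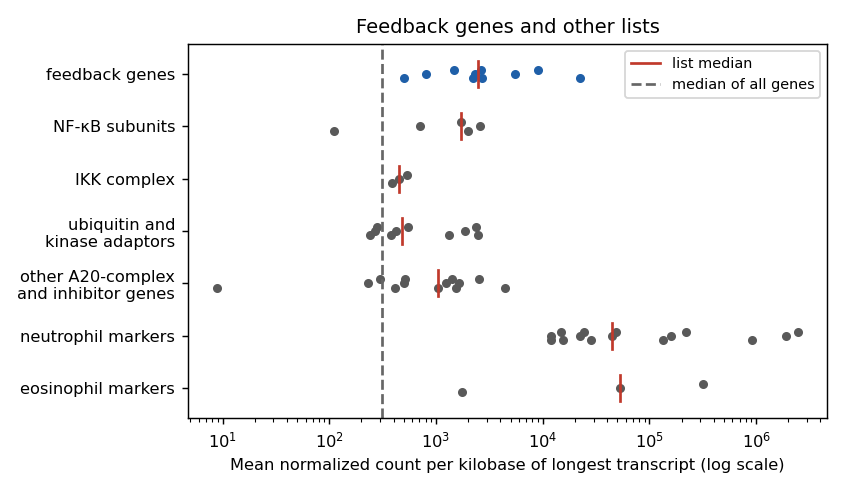
Mean normalized count per kilobase of the longest transcript (x axis, log scale) for the 10 feedback genes (blue), 4 other lists of the pathway and 2 lists of cell markers (grey). Each point is a gene and red bars are list medians: 2486 for the feedback genes, 1723 for NF-κB subunits and 451 for the IKK complex, beside 309 for all genes (dashed line).

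The labelled cell type was checked against its markers. All 15 neutrophil markers were in the tables, with levels from 11373 for *Ly6g* to 1290830 for *S100a9*. All 3 eosinophil markers were there too, with the granule protein genes *Prg2* at 268319 and *Epx* at 142776 and the surface marker *Siglecf* at 4599. Of the 4 mast cell and basophil markers 3 were listed, with *Cpa3* at 26296, *Mcpt8* at 2802 and *Ms4a2* at 593, and *Fcer1a* was not listed. Of the 7 macrophage and dendritic markers 3 were listed, with *Adgre1* highest at 10073 and *Mrc1* lowest at 90.9, and of the B cell markers 1 of 3, *Cd79a* at 83.8. None of the 4 T cell or 4 erythroid markers was listed. Since markers of eosinophils, of mast cells and basophils and of macrophages were also listed, the levels of the feedback genes belong to the whole cultures. The part of such cells in those levels was not tested. *Vim*, the targeted gene, had a level of 39926 over both genotypes, which as a pooled mean checks no label.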

How the data were processed

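The authors sequenced poly(A) RNA. Per the submitters' processing notes and the study's methods, adapters were removed with cutadapt 4.4, STAR 2.7.10b mapped and counted the reads (mm10), and DESeq2 1.26.0 normalized the counts and fitted a model with covariates from RUVSeq. The gene annotation and strand setting are not given in the sources used here. The signal in the 4 deposited tables is baseMean, the mean over libraries of the counts the authors normalized, and it was the same in all 4. The other 9 columns of each table hold the authors' own comparisons (fold changes, standard errors, statistics, p-values and labels made from them) and were not used. No test between groups was therefore run, and replicates could not be compared.

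Levels were ranked among 13091 genes. Lengths came from GENCODE M21 (GRCm38, the build of mm10), in which 12021 symbols (91.8%) matched 1 gene each. Motif counts used RefSeq promoters of GRCm38.p6. The search was tested on simulated sequences of only A and T with planted matches. That checks that planted matches are found, and does not check for false ones. Python 3.11.15, numpy 2.4.6, pandas 2.3.3 and matplotlib 3.10.9 were used. All 10 members and *Vim* are named, and list genes by the highest and lowest of each list, by level or per kilobase as stated. The other members of the IKK, eosinophil and mast cell lists were named after their values were seen. The members and lists were chosen with earlier results of these data known, and the ratios between members were added after the levels were seen. Alternatives were other reference genes, transcript lengths and motif forms. A motif search outside promoters is not reported here. Protein comparisons were planned and not run, as no protein sequences were used here.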

Additional observations from a re-analysis of the deposited data

How the results depend on the processing

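The share of genes below the median of the 10 genes was 87.9% among all genes, 84.6% among genes with a level of at least 100 and 87.0% among those matched to the annotation. Per kilobase, the median of the 10 over that of all genes was 8.03 with the longest transcript, 6.39 with the median, 10.1 with the shortest and 4.87 with the coding length. The median level of the other A20-complex and inhibitor genes was 2126, and 2508 without the 1 gene under a level of 100, while the other 4 pathway lists, which hold no gene under that level, kept theirs. Genes with a κB match numbered 7 of 9, 8 with the looser and 2 with the stricter form. With no value per library there is no spread to set these shifts against, and libraries could not be left out. No paired analysis was possible because the values are means over all libraries and come from no test. The planned protein alignments and the phosphodegron search were not run. The level of a gene that LPS raises depends on the mix of libraries averaged.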
